A study of Arabidopsis thaliana with 17 samples.

Results

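Small RNAs from Arabidopsis thaliana flowers were compared between NRPD1-3xF AAA-YPMF, a variant of the largest Pol IV subunit, and nrpd1-3 null plants, which lack that subunit. The comparison uses every one of 12939 siRNA clusters in 4 of the 12 libraries with values, of 17 in the series. NRPD1-3xF AAA-YPMF plants are nrpd1-3 mutants that carry an NRPD1p::NRPD1-3xF transgene, so NRPD1 is expressed from its own promoter with a FLAG tag, and the CYC of its CYC-YPMF motif is changed to alanines. The nrpd1-3 null plants share the nrpd1-3 allele and have no transgene. Both groups have 2 libraries. The other genotypes are used here as references. They are Col-0 WT, NRPD1-3xF WT (the intact transgene in nrpd1-3), NRPD1-3xF CYC-AAAA (the YPMF changed to alanines, in nrpd1-3) and the clsy quad mutant (mutant alleles clsy4-1, clsy3-1, clsy2-1 and clsy1-7), each with 2 libraries. By the study's methods the libraries of a genotype are biological replicates, and the labels do not say which transgenic line each library came from.

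Pol IV is a plant-specific RNA polymerase that starts RNA-directed DNA methylation (RdDM). Its short transcripts are made double-stranded by RDR2 and cut by DCL3 into 24 nt siRNAs, which guide methylation of cytosines at transposons and repeats, including cytosines in the CHH context, where H is any base but G. The CLASSY (CLSY) proteins are needed to bring Pol IV to its loci. The question of the comparison was how much siRNA the variant polymerase still makes over plants with no Pol IV.

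Levels are in RPKM, the reads of 24 nt divided by the cluster length and the library size, and clusters are named by chromosome and start in TAIR10, since the table gives no ends. Values in AAA-YPMF were low throughout. The library medians over all clusters were 0.15 and 0.19 RPKM in AAA-YPMF and 0 in both nrpd1-3 null libraries, against 13.5 and 12.2 RPKM in NRPD1-3xF WT and 11.75 and 10.99 RPKM in Col-0 WT. The table holds no mRNA, so neither the tissue nor loss of the NRPD1 transcript was checked against marker genes. From the most frequent ratio of low values, taken as single reads, AAA-YPMF libraries were both about 1.52 times the size of nrpd1-3 replicate 1, and nrpd1-3 replicate 2 was 1.23 times its size. These sizes are rough, since low rounded values allow few ratios. The AAA-YPMF estimates rest on 433 and 360 clusters. The smallest value above 0 in the 8 libraries of nrpd1-3, clsy quad, AAA-YPMF and CYC-AAAA had a median of 0.08 RPKM over clusters. How many reads a value stands for is not known.

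The DNA at the leading clusters is shown for the first 120 bases of each, on the forward strand of TAIR10, with cytosines in the CHH context of that strand in capitals, because these are cytosines that RdDM methylates. The first 2 clusters, chr4:13902361-13902480 and chr4:2558980-2559099, stand for the clusters with the highest levels in Col-0 WT. The next 2, chr2:1206413-1206532 and chr4:3766781-3766900, stand for a second kind that is described below. The 2 others are chr5:6630548-6630667, the cluster lower in AAA-YPMF with the smallest p, and chr2:7680791-7680910, upstream of the known RdDM target SDC. GC content was 15.0% and 15.8% in the first 2 windows, 27.5% and 19.2% in the next 2, 22.5% in the fifth and 25% at SDC. The median over all nuclear clusters was 32.0%, in windows of 300 bases.
merged_4_13902361: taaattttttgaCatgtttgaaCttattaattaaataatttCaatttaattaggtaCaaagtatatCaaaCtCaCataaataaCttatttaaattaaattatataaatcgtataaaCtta
merged_4_2558980: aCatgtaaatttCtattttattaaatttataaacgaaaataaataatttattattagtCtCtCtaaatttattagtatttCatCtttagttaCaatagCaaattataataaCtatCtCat
merged_2_1206413: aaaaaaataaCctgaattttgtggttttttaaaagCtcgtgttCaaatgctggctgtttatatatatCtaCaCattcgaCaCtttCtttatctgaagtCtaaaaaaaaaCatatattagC
merged_4_3766781: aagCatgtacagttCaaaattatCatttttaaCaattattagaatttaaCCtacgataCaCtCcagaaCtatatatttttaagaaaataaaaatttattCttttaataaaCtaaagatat
merged_5_6630548: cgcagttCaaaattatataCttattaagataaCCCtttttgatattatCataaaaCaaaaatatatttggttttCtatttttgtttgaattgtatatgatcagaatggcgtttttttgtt
merged_2_7680791: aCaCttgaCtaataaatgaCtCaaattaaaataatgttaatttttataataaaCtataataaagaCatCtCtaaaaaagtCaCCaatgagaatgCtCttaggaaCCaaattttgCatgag

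siRNAs were detected in AAA-YPMF at many clusters where nrpd1-3 null had none. Of 5715 clusters listed at 0 RPKM in both nrpd1-3 null libraries, 3156 (55.2%) had a value above 0 in both AAA-YPMF libraries. In reverse, of 1055 clusters at 0 in both AAA-YPMF libraries, 26 were above 0 in both nrpd1-3 null libraries. The same 5715 clusters were above 0 in both libraries at 26.2% in CYC-AAAA and at 14.1% in clsy quad. Library size moves with such shares. The second clsy quad library has the same estimated size as the AAA-YPMF libraries (1.52) and listed 43.6% of all clusters at 0, where AAA-YPMF listed 20.5% and 15.6%. The size estimates are too rough to show that these libraries were equal, and the part of library size in the shares was not tested. At a level of at least 1 RPKM, where a single read decides less, 393 clusters (3.04%) reached it in both AAA-YPMF libraries and 98 (0.757%) in both nrpd1-3 null libraries. In Col-0 WT, 12659 clusters reached it.

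Over all clusters, both AAA-YPMF libraries lay above both nrpd1-3 null libraries at 7371 clusters (57.0% of 12939) and below both at 247 (1.91%). The median log2 difference over clusters was 0.16 on the log2(RPKM + 1) scale, which understates the change of low clusters. The medians of the 2 groups of libraries did not overlap, and the exact two-sided permutation test gave p = 0.333, the smallest that 2 libraries against 2 allow. The summed level over nuclear clusters without the highest one did overlap, at 7794 and 8762 RPKM in AAA-YPMF and 6298 and 8375 RPKM in nrpd1-3 null (exact permutation p = 0.667).

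The size of the restored level was small against the intact protein. A group of 29 clusters keeps at least 1 RPKM and at least 50% of its Col-0 WT level in clsy quad, and these clusters hold most of the summed RPKM in nrpd1-3 null. Over the 12910 other clusters (a sum chosen once the data had been seen), the summed level was 3797 and 4576 RPKM in AAA-YPMF and 1462 and 1771 RPKM in nrpd1-3 null. The AAA-YPMF mean was 2.59-fold the nrpd1-3 null mean (4186 ± 551 against 1616 ± 219, SD, n = 2 each), with no overlap between the groups and an exact permutation p = 0.333, again the smallest possible. CYC-AAAA summed to 2361 and 2444 RPKM and clsy quad to 1427 and 1751 RPKM. NRPD1-3xF WT summed to 336680 and 308440 RPKM. As a share of the way from nrpd1-3 null to NRPD1-3xF WT, called percent restored, AAA-YPMF reached 0.679% and 0.922% (0.801% ± 0.172, SD, n = 2). With only the cluster of highest Col-0 WT level left out, percent restored was 0.297% ± 0.216 (0.144% and 0.450%), and it was -0.031% without nrpd1-3 replicate 1. By single clusters, among the 12663 where NRPD1-3xF WT exceeded nrpd1-3 null by at least 1 RPKM, the median restored was 0.935%, 469 clusters reached 5%, 62 reached 10% and 10 reached 20%.

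**Figure D1:**
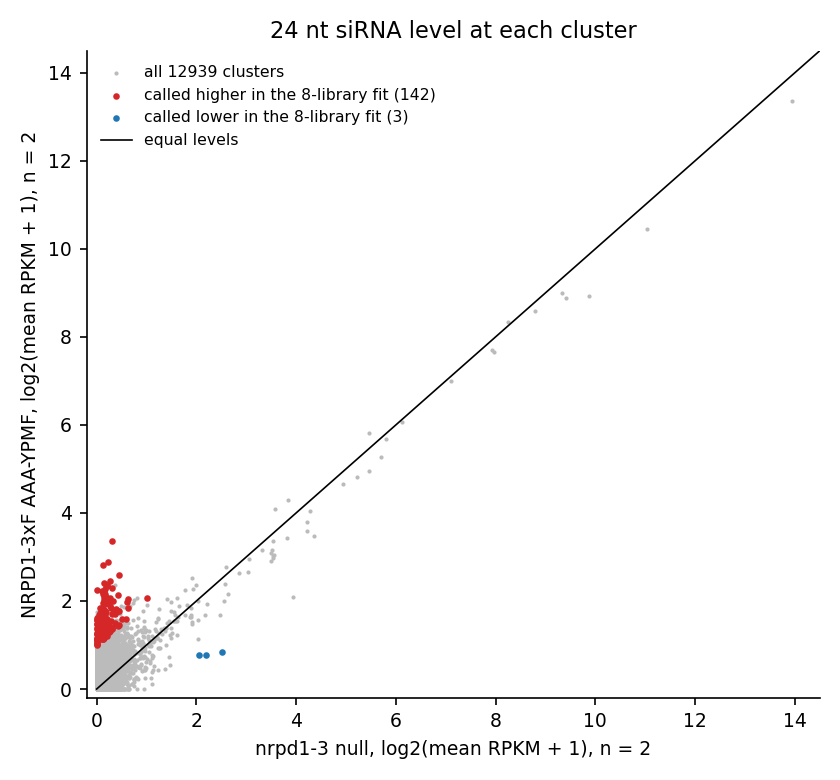
Mean level in NRPD1-3xF AAA-YPMF (y axis) against nrpd1-3 null (x axis), both as log2(RPKM + 1), with 1 point per cluster and the line of equal levels. The 142 red clusters are called higher in the fit over 8 libraries and lie near 0 in nrpd1-3 null, the 3 blue clusters are called lower, and the clusters of the highest level lie at or under the line.

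The test was limma on log2(RPKM + 1), with p-values adjusted by the Benjamini-Hochberg method over all 12939 clusters, and a cluster was called at an adjusted p under 0.01 and a difference of at least 1 on that scale, a doubling of RPKM + 1. Fitted on the 4 libraries alone, limma called 0 clusters higher and 0 lower in AAA-YPMF (0% and 0% of those tested), and the smallest adjusted p was 0.0238. By the same fit 4678 clusters (36.2%) were higher and 62 (0.479%) lower at an unadjusted p under 0.05, and 245 (1.89%) were higher and 5 (0.0386%) lower by at least 1 on the log2 scale. With the adjusted p set at under 0.05, 154 (1.19%) rose and 2 (0.0155%) fell. Fitted together with the CYC-AAAA and clsy quad libraries, 8 in all, 142 clusters (1.10%) were called higher and 3 (0.0232%) lower. The 4-library fit was the planned test, and this 8-library fit was chosen after the data had been seen. Of the 142, 131 were also called by the 4-library fit at an adjusted p under 0.05. The number rests on both nrpd1-3 null libraries: the 8-library fit called 2 higher without nrpd1-3 replicate 1 and 0 without replicate 2, and 202 and 115 without AAA-YPMF replicate 1 and 2.

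At the 10 clusters with the largest increase, both AAA-YPMF libraries were between 3.42 and 10.6 RPKM and every nrpd1-3 null library was at or below 0.38 RPKM. The largest increase was at merged_4_13902361, which starts 361 bp downstream of PYL10, an abscisic acid receptor gene. It had 10.6 and 8.14 RPKM in AAA-YPMF and 0.34 and 0.14 RPKM in nrpd1-3 null. The log2 difference was 3.06 ± 0.18 (SE), and limma gave adjusted p = 0.0286 in the 4-library fit and 0.0015 in the 8-library fit. Even so, the AAA-YPMF mean was 2.68% restored, since NRPD1-3xF WT had 357 and 325 RPKM and Col-0 WT 1137 and 1098 RPKM. CYC-AAAA had 0.98 and 0.60 RPKM there, and clsy quad had 2.95 and 2.30 RPKM, between the variant polymerases.

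The second was merged_2_1206413, 164 bp upstream of AT2G03930, with 6.11 and 5.92 RPKM in AAA-YPMF and 0.11 and 0.09 RPKM in nrpd1-3 null. Its log2 difference was 2.67 ± 0.07 (SE), with limma adjusted p = 0.0238 and 0.00131 in the 2 fits. CYC-AAAA had 1.32 and 1.17 RPKM, above the 0.38 and 0.68 RPKM of clsy quad. The third was merged_4_3766781, 110 bp upstream of YY1, which encodes a zinc finger transcription factor. AAA-YPMF had 5.68 and 7.04 RPKM, nrpd1-3 null 0.13 and 0.21 RPKM, and CYC-AAAA 3.15 and 3.93 RPKM. This cluster was the nearest of the 10 to its level in CYC-AAAA, and AAA-YPMF and CYC-AAAA differed by 0.70 on the log2 scale (limma adjusted p = 0.0578 in the 8-library fit).

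At merged_2_4965431, 1213 bp upstream of the non-coding RNA gene AT2G05685, AAA-YPMF had 3.78 and 3.79 RPKM and both nrpd1-3 null libraries were listed at 0. At merged_3_10006169, downstream of AT3G27140, AAA-YPMF had 3.90 and 4.80 RPKM against 0.08 and 0.13 RPKM. Neither CYC-AAAA (0.40 and 0.27 RPKM) nor clsy quad (0.21 and 0.48 RPKM) came near AAA-YPMF at that cluster. Merged_2_2602290, downstream of the pseudogene AT2G06550, had 3.70 and 4.51 RPKM in AAA-YPMF and 0.14 and 0.17 RPKM in nrpd1-3 null. These 3 clusters had more siRNA in NRPD1-3xF WT than in Col-0 WT, as at AT2G03930 and YY1.

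The other 4 of the 10 resemble the PYL10 cluster. They are merged_4_2558980 downstream of AT4G04990 (4.87 and 4.09 RPKM in AAA-YPMF against 0.22 and 0.19 RPKM), merged_1_23453053 downstream of AT1G63230 (4.94 and 3.42 against 0.21 and 0.07 RPKM), merged_3_15680917 downstream of the lncRNA gene AT3G06675 (5.51 and 4.59 against 0.38 and 0.35 RPKM) and merged_5_1409843 in an exon of VPS60.2 (4.52 and 3.73 against 0.22 and 0.10 RPKM). At all of them NRPD1-3xF WT had 0.285 to 0.330 of the Col-0 WT level. In each, both clsy quad libraries were above both CYC-AAAA libraries. At merged_3_15680917, which has the second-highest Col-0 WT level of all clusters, clsy quad had 3.00 and 2.64 RPKM and CYC-AAAA 0.57 and 0.35 RPKM.

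**Figure D2:**
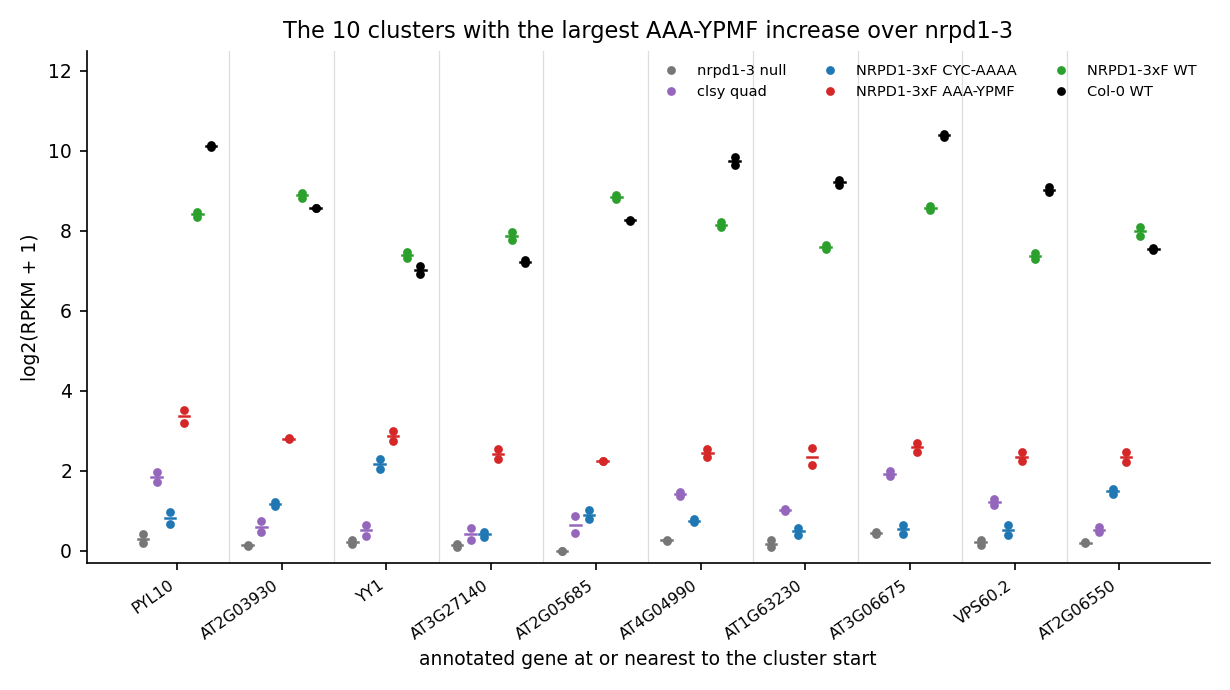
The 10 clusters with the largest difference, named on the x axis by the annotated gene at or nearest to the cluster start, with log2(RPKM + 1) on the y axis; each dot is a library and each short line the mean of 2. AAA-YPMF (red) is above nrpd1-3 null (grey) at all 10, both clsy quad libraries (purple) are above both CYC-AAAA libraries (blue) at 5 of them, and all 4 mutants are far under NRPD1-3xF WT (green) and Col-0 WT (black).

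The same split ran through the 142 clusters called higher in the 8-library fit, when they were divided by the ratio of NRPD1-3xF WT to Col-0 WT, which the AAA-YPMF and nrpd1-3 null values do not enter. In 36 clusters NRPD1-3xF WT was under 0.5 of Col-0 WT. All 36 were in the highest of 10 parts by Col-0 WT level, with a median of 539 RPKM in Col-0 WT and 154 RPKM in NRPD1-3xF WT. Their medians were 3.03 and 2.28 RPKM in the 2 AAA-YPMF libraries and 0.155 and 0.10 RPKM in nrpd1-3 null. CYC-AAAA had medians of 0.335 and 0.235 RPKM and clsy quad 1.28 and 1.05 RPKM. Both clsy quad libraries lay above both CYC-AAAA libraries at 36 of 36, where this held for 25.6% of the 1053 nuclear clusters with the same ratio and for 45.9% of the 403 of these in the highest of 10 parts. The 403 had a median of 124 RPKM in Col-0 WT, so the 36 also differ from them in level. The 8-library fit that chose the 36 also used the replicate spread of clsy quad and CYC-AAAA. The 1053 and the 403 were not chosen in that way, so these shares are a description and the contrast was not tested. By annotation the 36 were near the 1053: 19.4% against 15.7% started in a protein-coding gene, and 55.6% against 51.2% within 1 kb of one. They lay somewhat nearer to the centromere, at a median distance of 4.40 Mb against 5.34 Mb.

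In 94 of the 142, NRPD1-3xF WT was at least as high as Col-0 WT. These clusters had medians of 1.60 and 1.78 RPKM in AAA-YPMF, 0.08 and 0.10 RPKM in nrpd1-3 null, 0.67 and 0.755 RPKM in CYC-AAAA, and 0.13 and 0.17 RPKM in clsy quad. The order of CYC-AAAA and clsy quad was the opposite of that in the 36. Both CYC-AAAA libraries were above both clsy quad libraries at 77 of 94 clusters (81.9%), against 27.6% of the 9814 nuclear clusters with that ratio, and the reverse held at 4. The same limit on how the clusters were chosen holds for this contrast. The 94 also differ from the 9814 in level, with medians of 34.8 against 8.38 RPKM in Col-0 WT. Medians of the mean were 0.7125 against 0.07 RPKM in CYC-AAAA and 0.1425 against 0.03 RPKM in clsy quad. No part of the 9814 matched in level was compared. Of the 94, 62.8% started within 2 Mb of a centromere, compared with 45.6% of the 9814, and of the 36, 19.4% did so, compared with 9.02% of the 1053. The other 12 clusters had ratios between 0.5 and 1.

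**Figure D3:**
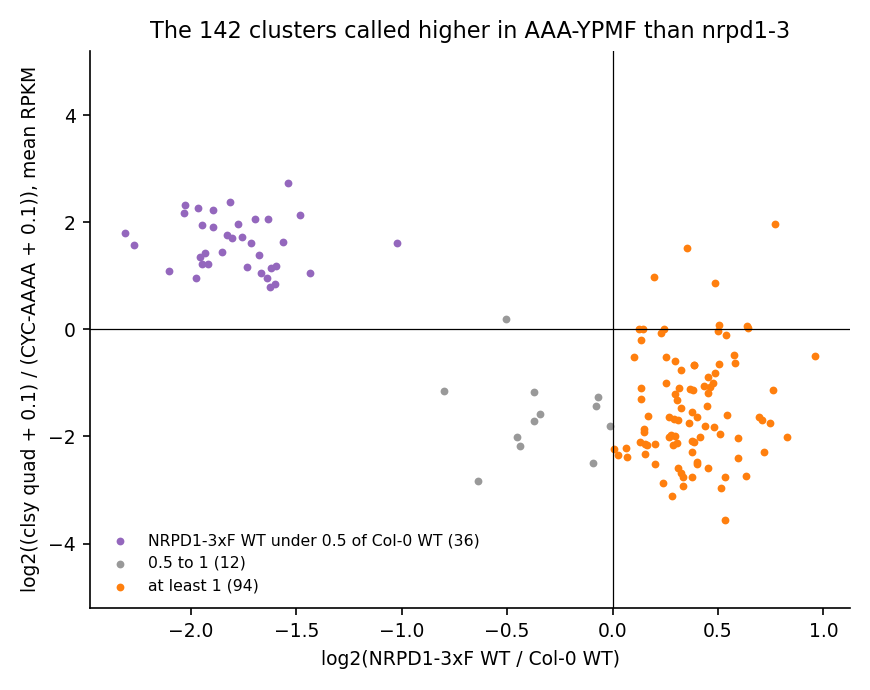
The 142 clusters called higher in AAA-YPMF, by the log2 ratio of NRPD1-3xF WT to Col-0 WT (x axis) and the log2 ratio of clsy quad to CYC-AAAA, each mean RPKM plus 0.1 (y axis). The 36 purple clusters lie at the upper left, with clsy quad above CYC-AAAA, and most of the 94 orange clusters lie at the lower right, with CYC-AAAA above clsy quad.

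AAA-YPMF was also set against the second variant directly. Both AAA-YPMF libraries were above both CYC-AAAA libraries at 5558 clusters (43.0%) and below at 492 (3.8%). limma called 0 higher and 0 lower in the 4-library fit (0% each; 2516 higher, 19.4%, and 147 lower, 1.14%, at an unadjusted p under 0.05), and 30 higher (0.232%) and 0 lower in the 8-library fit. Of those 30, which rest on the same AAA-YPMF libraries as the 142, 22 were in the 36 clusters with low NRPD1-3xF WT and 8 in the 94. The PYL10 cluster differed by 2.53 on the log2 scale (adjusted p = 0.00294 in the 8-library fit of limma) and merged_3_15680917 by 2.05 (adjusted p = 0.00148). Against nrpd1-3 null, limma called no cluster in CYC-AAAA in either fit, with 1576 higher (12.2%) and 117 lower (0.904%) at an unadjusted p under 0.05 in the 4-library fit. For clsy quad the corresponding numbers were 508 (3.93%) and 183 (1.41%), with 0 calls in the 4-library fit and 1 lower (0.00773%) in the 8-library fit. Both comparisons share their nrpd1-3 null libraries with that of AAA-YPMF.

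Among the clusters of highest level in Col-0 WT, 4 were restored only in part. They include merged_4_5438259, in an intron of AT4G08545, with 4.11 and 2.82 RPKM in AAA-YPMF, 0.10 and 0.10 RPKM in nrpd1-3 null and 1070 and 997 RPKM in Col-0 WT. The highest of all, merged_1_24884060, starts 6 bp from MIR163, a microRNA gene, and was higher in every nrpd1-3 null library than in Col-0 WT. It had 10633 and 10391 RPKM in AAA-YPMF, 14422 and 16969 RPKM in nrpd1-3 null and 4813 and 4956 RPKM in Col-0 WT. AAA-YPMF was below nrpd1-3 null there by 0.57 on the log2 scale, which did not pass the test (limma adjusted p = 0.0711). This cluster alone held 57.7% and 54.2% of the summed RPKM in AAA-YPMF and 69.6% and 66.9% in nrpd1-3 null.

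The highest percent restored, 75.1%, belonged to merged_1_10982103, downstream of the lncRNA gene AT1G06377, and was of another kind. It had 16.5 and 15.3 RPKM in AAA-YPMF, but nrpd1-3 null already had 9.33 and 12.53 RPKM and clsy quad had 23.2 and 22.9 RPKM. The next 4 of the clusters with at least 10 RPKM in NRPD1-3xF WT lay near pseudogenes and had little in nrpd1-3 null. Merged_3_13333110, 658 bp from the pseudogene AT3G32389, had 2.15 and 2.74 RPKM in AAA-YPMF and 0.06 and 0.09 RPKM in nrpd1-3 null, which is 11.1% ± 1.9 restored (SD, n = 2). It was called higher in the 8-library fit (log2 difference 1.68, limma adjusted p = 0.00188). Merged_1_15058294, near the pseudogene AT1G40099 and 0.058 Mb from the rounded position set for the centromere, had 1.51 and 0.87 RPKM in AAA-YPMF. All libraries of nrpd1-3 null, CYC-AAAA and clsy quad were listed at 0 there, and it was called as well (adjusted p = 0.00915). Merged_4_4335331 (2.23 and 1.22 RPKM against 0 in both) and merged_5_15360816 (0.80 and 1.75 RPKM against 0.12 and 0) were 10.9% and 10.5% restored and were not called.

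Clusters lower in AAA-YPMF were few. The largest difference was at merged_2_6777734, in an exon of MBR1, which encodes a RING-type ubiquitin ligase, with 4.95 and 1.58 RPKM in AAA-YPMF and 17.0 and 11.7 RPKM in nrpd1-3 null. It did not pass the test (log2 difference -1.95 ± 0.54 SE, limma adjusted p = 0.117). The 3 called lower in the 8-library fit were merged_5_6630548, merged_2_9056644 and merged_3_9608008, all upstream of protein-coding genes. At merged_5_6630548, 524 bp upstream of AT5G19630, AAA-YPMF had 0.88 and 0.72 RPKM and nrpd1-3 null 4.36 and 5.02 RPKM (log2 difference -1.66 ± 0.11 SE, adjusted p = 0.00159). CYC-AAAA had 1.38 and 1.31 RPKM there and clsy quad 3.14 and 3.50 RPKM, while NRPD1-3xF WT had 19.97 and 18.81 RPKM. The same order of the 4 mutants held at merged_2_9056644, with 0.62 and 0.80 RPKM in AAA-YPMF, 0.98 and 1.16 RPKM in CYC-AAAA, 2.21 in both clsy quad libraries and 3.32 and 3.83 RPKM in nrpd1-3 null. It also held at merged_3_9608008, where nrpd1-3 null had 2.82 and 3.53 RPKM and AAA-YPMF 0.56 and 0.87 RPKM. The fifth, merged_3_7834652 upstream of the GABA transaminase gene POP2, had 0.90 and 0 RPKM against 1.76 and 1.77 RPKM and was not called.

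Clusters near known RdDM target genes were at low levels in AAA-YPMF. Of 10 such genes, 9 had a cluster within 2 kb (all but ROS1), 13 clusters in all. Both AAA-YPMF libraries were above both nrpd1-3 null libraries at 6 of the 13 (46.2%, against 57.0% of all clusters) and below at 0, and limma called none of the 13 in either fit. SDC encodes an F-box protein and is silenced through repeats in its promoter. Its cluster, merged_2_7680791, which starts 1371 bp upstream and 413 bp from AT2G17680, had 1.05 and 1.09 RPKM in AAA-YPMF and 0.17 and 0.20 RPKM in nrpd1-3 null. The log2 difference was 0.80 ± 0.06 (SE), under the minimum of 1, with limma adjusted p = 0.0338 and 0.00286 in the 2 fits. CYC-AAAA had 0.67 and 0.78 RPKM and clsy quad 0.07 and 0.08 RPKM, and AAA-YPMF was 3.76% ± 0.12 restored (SD, n = 2).

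ALN, the allantoinase gene, had 2 clusters with high levels in Col-0 WT. Upstream of it, merged_4_2525927 had 0.76 and 1.51 RPKM in AAA-YPMF, 0.04 and 0.11 RPKM in nrpd1-3 null and 361 and 355 RPKM in Col-0 WT, so 0.336% was restored. Downstream of it, merged_4_2520873, which is also 811 bp upstream of GRXS17, had 1.14 and 1.54 RPKM against 0.34 and 0.47 RPKM. The cluster 237 bp upstream of QQS, an orphan gene with a part in starch content, had 0.67 and 0.48 RPKM in AAA-YPMF and was listed at 0 in both nrpd1-3 null libraries. At AGL36, an imprinted MADS-box gene, 2 of 3 clusters did not overlap, with 0.35 and 0.53 against 0.09 and 0.09 RPKM upstream and 0.26 and 0.28 RPKM against 0 in both at 1279 bp downstream. The groups overlapped at the third, 591 bp downstream.

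At FWA, a homeodomain gene silenced by methylated repeats in its promoter, the groups overlapped: merged_4_13038163, 197 bp upstream, had 0 and 0.29 RPKM in AAA-YPMF and 0.44 and 0 RPKM in nrpd1-3 null, with 25.8 and 28.5 RPKM in Col-0 WT. The imprinted genes MEA (0.03 and 0.09 against 0 and 0.08 RPKM), PHE1 (0.16 and 0.16 against 0 and 0.58 RPKM) and HDG3 (0.19 and 0.90 against 0 and 0.44 RPKM) had overlapping groups too. So did EPF2, a stomatal patterning gene (0 and 0.15 RPKM against 0 in both). The second QQS cluster, merged_3_12351620, was listed at 0 in all 4 libraries and had 14.04 and 10.91 RPKM in Col-0 WT. Where the groups overlapped, these libraries did not show a difference, which does not exclude one.

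**Figure D4:**
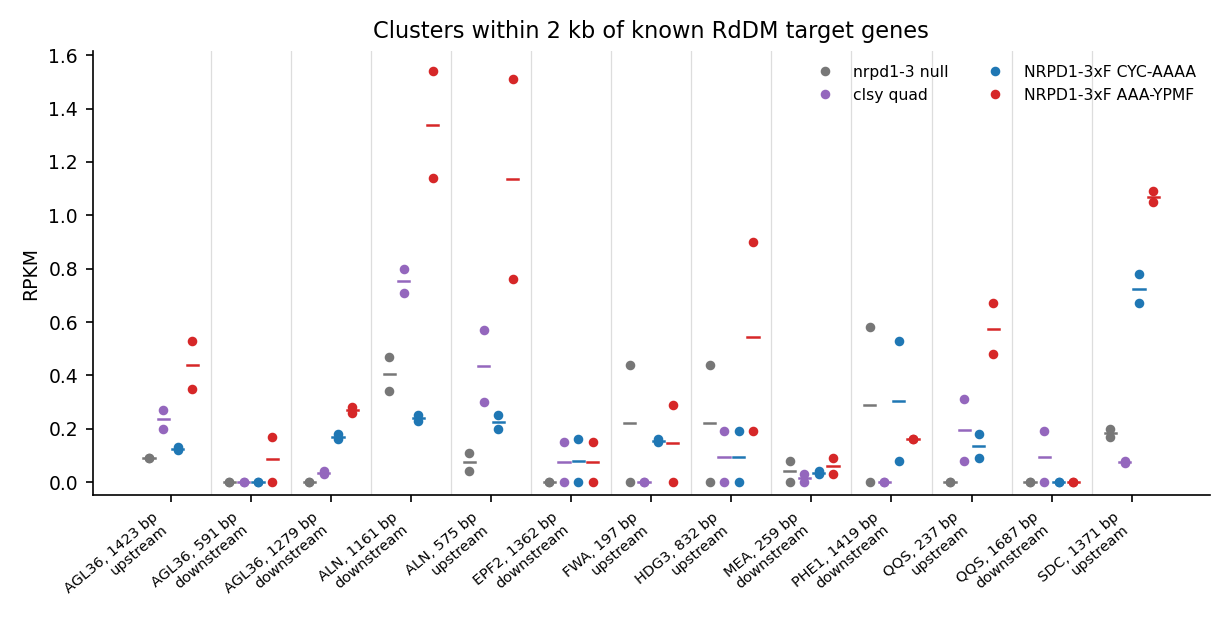
RPKM (y axis) at the 13 clusters within 2 kb of known RdDM target genes, labelled by the gene and the distance of the cluster start from it; each dot is a library and each short line the mean of 2. AAA-YPMF (red) is above nrpd1-3 null (grey) in both libraries at 6 clusters, among them SDC with 1.05 and 1.09 RPKM against 0.17 and 0.20 RPKM, and no value exceeds 1.54 RPKM.

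Across the genome, higher levels in AAA-YPMF were spread over all 5 nuclear chromosomes, in shares that differed between kinds of region. By chromosome, both AAA-YPMF libraries were above nrpd1-3 null at 55.4% to 58.4% of clusters. By distance of the cluster from the centromere the share was 62.0% within 1 Mb, 66.0% from 1 to 2 Mb, 56.8% from 2 to 4 Mb, 49.1% from 4 to 8 Mb and 48.7% beyond 8 Mb. Clusters in pseudogenes, many of which are remnants of transposons, had the highest share of the annotation groups (66.8% of 1727), and clusters within 1 kb of a protein-coding gene had 51.6% of 4157. The 8-library fit called 5 (0.290%) higher in pseudogenes and 57 (1.37%) near protein-coding genes, against 1.1% of all clusters. A call needs a difference of at least 1 on log2(RPKM + 1), so a cluster with a mean under 1 RPKM in AAA-YPMF cannot be called higher. Without that minimum, at an adjusted p under 0.05 in the 4-library fit of limma, 13.5% were higher in pseudogenes and 7.14% near genes. The share over all clusters was 8.76%. Pseudogene clusters had a median of 2.95 RPKM in Col-0 WT against 20.9 RPKM near genes. By GC content in 4 parts, the share was 47.6% in the lowest and 62.7% in the highest, with 58 (1.8%) and 22 (0.682%) calls. Without the minimum difference, at the same adjusted p under 0.05, 7.44% and 11.7% were higher. These groups also differ in Col-0 WT level, and their separate parts were not tested.

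By level in Col-0 WT, the top part of 10 had the highest share and the most calls. There both AAA-YPMF libraries were above nrpd1-3 null at 68.7% of 1294 clusters and 70 (5.41%) were called higher. The other parts had 45.4% to 62.1% and at most 22 calls (1.7%), against 1.1% called over all clusters. The minimum difference of 1 limits calls in the parts of low level. Without it, at an adjusted p under 0.05 in the 4-library fit of limma, 12.4% were higher in the top part, against 8.76% of all clusters. The other parts had 6.41% to 11.8%, the last in the lowest part. In RPKM the median AAA-YPMF level rose with the Col-0 WT level, from 0.05 RPKM in the lowest part to 0.503 RPKM in the highest, as that of nrpd1-3 null did from 0 to 0.095 RPKM. As a share of NRPD1-3xF WT it went down: the median percent restored was 1.34% and 1.65% in the second part and 0.357% and 0.524% in the top part, in AAA-YPMF replicates 1 and 2. CYC-AAAA stayed under AAA-YPMF in every part, with medians of the mean of 0.457% in the second part and 0.0543% in the top part.

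**Figure D5:**
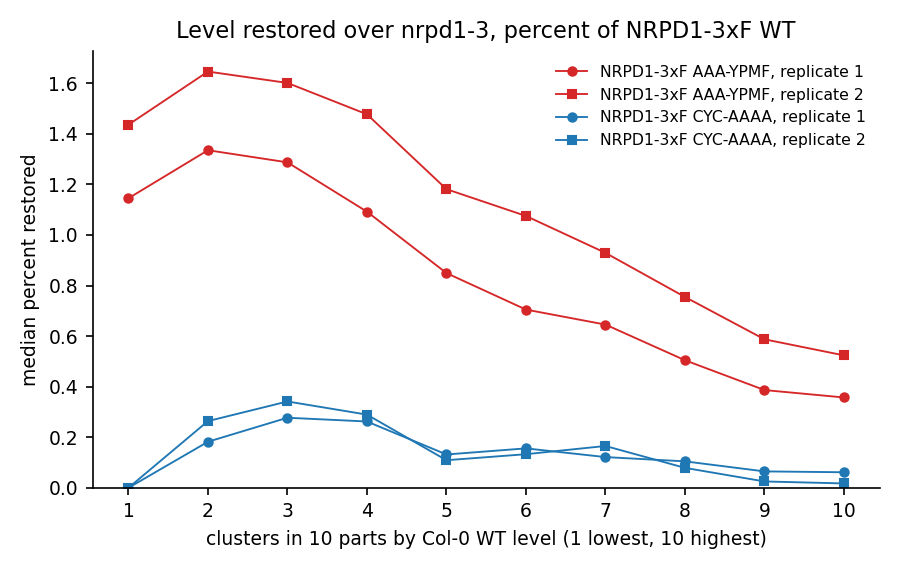
Median percent restored over nrpd1-3 null (y axis, percent of NRPD1-3xF WT) in 10 parts of the clusters by Col-0 WT level (x axis), with 1 line per library. Both AAA-YPMF libraries (red) are highest in the second part, at 1.34% and 1.65%, reach their lowest values in the top part, at 0.357% and 0.524%, and are above both CYC-AAAA libraries (blue) in each part.

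Mitochondrial clusters and clusters at microRNA genes, listed as possible sources of 24 nt RNA other than Pol IV, were above nrpd1-3 null in smaller shares than the 57.0% of all clusters. The 37 mitochondrial clusters summed to 9.77 and 11.5 RPKM in AAA-YPMF and 10.88 and 11.04 RPKM in nrpd1-3 null, and AAA-YPMF was above in both libraries at 24.3% and below at 10.8%. Their sums were higher in NRPD1-3xF WT (131 and 110 RPKM) and in Col-0 WT (49.2 and 52.6 RPKM). In clsy quad, whose NRPD1 is intact, they summed to 12.12 and 11.32 RPKM. Of 20 clusters at microRNA genes, AAA-YPMF was above at 30.0% and below at 30.0%, and none was called. At MIR848 it had 538 and 484 RPKM against 646 and 639 RPKM, at MIR839 66.0 and 65.5 RPKM against 61.3 and 75.8 RPKM, and at MIR869 19.4 and 18.1 RPKM against 11.4 and 15.3 RPKM. Others were near 0 in both groups, such as MIR8177, with 0.16 and 0.46 RPKM in AAA-YPMF, 0 in both nrpd1-3 null libraries and a mean of 37.2 RPKM in NRPD1-3xF WT. Of the 29 clusters kept in clsy quad, AAA-YPMF was above nrpd1-3 null at 13.8% and below at 58.6%, with a median log2 difference of -0.39. No cluster lay in or within 200 bp of the 6 TAS genes, which make other small RNAs.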

How the data were processed

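Members and lists were chosen with earlier results of these data known. The authors trimmed adapters with cutadapt, mapped reads to TAIR10 with ShortStack, kept perfect matches or a single 3′ mismatch, and deposited RPKM values of 24 nt reads over siRNA clusters, made with HOMER 4.10. No depth, count of reads or cluster end is in the table, and 0 value columns were left unused. Libraries of the CLSY3 experiment are not analysed here. RPKM were taken to log2(RPKM + 1), a pseudocount of 1, and tested with limma 3.58.1 in R 4.3.3 (lmFit, eBayes with trend) on the 4 libraries of the comparison, without a filter on low values. p-values were Benjamini-Hochberg adjusted over 12939 clusters. On simulated data the 4-library fit recovered the differences but made no calls at this threshold, while the 8-library fit and a fit of clusters of at least 1 RPKM made calls. The simulated genotypes had the same spread, and only AAA-YPMF was changed, at a small set of clusters. The simulation therefore cannot show whether the 8-library fit suits the real libraries. Groups came from the sample titles. Clusters named are the 10 largest increases and 5 largest decreases among clusters whose groups do not overlap, the 5 highest percent restored, the 5 highest in Col-0 WT and those within 2 kb of the listed RdDM genes. MIR848, MIR839, MIR869 and MIR8177 were chosen after their values were seen. Genes and sequence came from RefSeq's TAIR10.1, whose nuclear chromosomes carry the TAIR10 sequence, and centromeres were placed at rounded positions set for this work.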

Additional observations from a re-analysis of the deposited data

Results flagged for a closer look

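At merged_4_2520873, downstream of ALN, the 2 variants lay on opposite sides of nrpd1-3 null in every library. AAA-YPMF had 1.14 and 1.54 RPKM and CYC-AAAA 0.25 and 0.23 RPKM, on either side of 0.34 and 0.47 RPKM in nrpd1-3 null. The log2 difference of AAA-YPMF from nrpd1-3 null was 0.73 (limma adjusted p = 0.0681 in the 4-library fit and 0.0124 in the 8-library fit). CYC-AAAA against nrpd1-3 null did not pass the test (limma adjusted p = 0.518 in the 4-library fit). The difference between the 2 effects, which is that of AAA-YPMF from CYC-AAAA, was 0.91 on the log2 scale. For it limma gave adjusted p = 0.147 in the 4-library fit and 0.0156 in the 8-library fit, and neither comparison was called.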

How the results depend on the processing

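The number of clusters called higher in AAA-YPMF than nrpd1-3 null was 0 in the 4-library fit, as it was with a pseudocount of 0.1, without the trend, and after rescaling to the clusters kept in clsy quad. It was 87 among the 246 clusters that averaged 1 RPKM or more, of which 86 had an nrpd1-3 null mean under 1 RPKM and so passed that filter through AAA-YPMF. It was 142 over 8 libraries, 223 over 12 and 154 at an adjusted p under 0.05, and 0 to 140 when 1 replicate was left out. The numbers called lower were 3, 3, 4 and 2 in those settings. Chosen after seeing the data, the 8-library fit gave 260 higher and 3 lower after rescaling, 329 and 5 with a pseudocount of 0.1, and 0 to 202 higher (115 without AAA-YPMF replicate 2 and 2 without nrpd1-3 replicate 1) and 0 to 3 lower without 1 replicate. AAA-YPMF against CYC-AAAA gave 45 higher and 3 lower at a mean of at least 1 RPKM, 56 and 1 over 12 libraries, and 30 and 0 over 8. CYC-AAAA against nrpd1-3 null gave 1 higher and 3 lower at a mean of at least 1 RPKM, 4 and 2 over 12 libraries, 1 higher at an adjusted p under 0.05, and 0 to 17 higher without 1 replicate. clsy quad against nrpd1-3 null gave 4 and 4 at a mean of at least 1 RPKM, and 1 lower over 12 libraries, over 8 and at an adjusted p under 0.05. The cause of these differences was not tested.

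Clusters with no overlap numbered 141 above and 39 below among clusters that averaged 1 RPKM or more, and 118 below after rescaling. The median log2 difference was 0.91 with a pseudocount of 0.1 and 0.49 at a mean of at least 1 RPKM. Percent restored was 0.843% for the median cluster, 0.803% without the top 1% of clusters, 0.697% after rescaling and 0.801% without the clusters kept in clsy quad, but -1.39% with the MIR163 cluster in the sum, where nrpd1-3 null is higher, and -0.031% to 0.623% without 1 replicate. Small differences turned sign without 1 replicate at the clusters of HDG3 (-0.012 to 0.66), PHE1 (-0.45 to 0.21), FWA (-0.34 to 0.18, 0.10 without AAA-YPMF replicate 1) and MEA (-0.028 to 0.083, -0.013 without AAA-YPMF replicate 2), in both the 4-library and 8-library fits.

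With the replicate number as a block, 0 clusters were called, with 3134 higher at an unadjusted p under 0.05. The numbers mark no shared batch in the labels, and same-numbered AAA-YPMF and nrpd1-3 null libraries deviated together with r = 0.0174. The nrpd1-3 null libraries list 63.0% and 55.3% of clusters at 0, so this r cannot show whether the samples were paired. Limits are the 2 libraries per genotype, the unknown number of reads per value, and a count of calls that depends on keeping both nrpd1-3 null libraries.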
